A study of Mus musculus with 2 samples.

Results

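The miR-302 and miR-367 cluster is a group of 5 microRNA (miRNA) genes that lie side by side on mouse chromosome 3: Mir302b, Mir302c, Mir302a, Mir302d and Mir367. They were taken by name, through Ensembl identifiers paired with GENCODE symbols, and make up 5 of the 1973 miRNA genes listed in counts from embryonic mouse lung. In these lungs 4 of the 5 genes, the Mir302 genes, were read in both libraries at low levels, and Mir367 had 0 reads in either. The study sequenced RNA below 30 nt from lung of B6NCrl embryos at embryonic day 14.5 (E14.5) in 2 biological replicates, with 5128214 counts on the strand of a miRNA gene in replicate 1 and 2332032 in replicate 2. No treatment and no altered genotype is named, both libraries form 1 group, and so there is no condition to compare. The labels call each sample the lung of a single pup and also give the sex as pooled, which leaves the number of embryos per library unsettled. The libraries carry different collection days, so day and replicate cannot be told apart, and nothing else in the labels separates them.

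An miRNA is a short RNA cut from a hairpin precursor, and it represses messenger RNAs that pair with its seed, the stretch of bases near its 5′ end. The genes of this cluster are cut from 1 primary transcript. They are abundant in pluripotent stem cells, where the miR-302 members promote cell division by repressing inhibitors of the cell cycle. In the lung the cluster is known as a target of Gata6 in early endoderm, where it favours proliferation of progenitors and takes part in cell polarity, and its expression declines as the epithelium differentiates. In bulk tissue, fewer cells of a type and less RNA per cell cannot be told apart.

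The sequences below show the seeds of mature arms listed for the members. Mature sequences were taken from RefSeq (GRCm38.p6), which matched all 5 members by symbol with 9 mature arms. They are written 5′ to 3′ with bases 2 to 8, the seed, in capitals.
miR-302b-3p: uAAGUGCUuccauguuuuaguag
miR-302d-3p: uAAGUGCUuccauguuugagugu
miR-302c-3p: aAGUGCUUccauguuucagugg
miR-302a-5p: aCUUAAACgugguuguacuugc
miR-367-3p: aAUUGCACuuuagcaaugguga
The 3p arms of Mir302b and Mir302d carry the same seed. miR-302a-3p was not used here. The first 16 bases of miR-302c-3p are those of miR-302b-3p from base 2 onward, so the listed seed of miR-302c-3p is moved by 1 base and is a different one. The seed of miR-367-3p is unrelated to these. The counts are per gene and do not tell the 5p arm of a hairpin from its 3p arm.

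The cluster covers 580 nt of the plus strand of chromosome 3 in mm10, chr3:127545228-127545807. Its hairpins of 66 to 75 nt stand 43 to 65 nt apart in the order Mir302b, Mir302c, Mir302a, Mir302d, Mir367. All 5 lie in an intron of Larp7, a gene for a binding protein of the 7SK RNA, on the strand opposite to it. The Larp7 intron runs from 127544279 to 127545825, and 2 of the 4 annotated Larp7 transcripts span it. The hairpins of Mir302d, which had the most reads of the cluster in replicate 1, and of Mir367, which had 0, are shown with both mature arms in capitals.
Mir302d: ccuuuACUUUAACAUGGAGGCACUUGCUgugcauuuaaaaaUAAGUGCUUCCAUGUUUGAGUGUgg
Mir367: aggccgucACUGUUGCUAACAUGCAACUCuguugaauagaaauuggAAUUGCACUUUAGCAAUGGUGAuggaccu

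Mir302a and Mir302d were the most abundant members, Mir302b was lower, and Mir302c lay just above the limit of detection. Levels are in counts per 1000000 gene-strand miRNA counts (CPM). A count of 0 allows up to 3 counts, equal to 0.585 CPM at the depth of replicate 1 and to 1.29 CPM at that of replicate 2. This limit and the intervals below cover counting error only. Mir302a had 103 counts in replicate 1, or 20.1 CPM (95% exact Poisson interval 16.4 to 24.4), and 37 in replicate 2, or 15.9 CPM (11.2 to 21.9). Its mean was 18.0 ± 2.98 CPM (SD, n = 2), and the intervals of the libraries overlapped.

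Mir302d had 108 counts (21.1 CPM, interval 17.3 to 25.4) in replicate 1 and 26 (11.1 CPM, 7.28 to 16.3) in replicate 2, a mean of 16.1 ± 7.01 CPM. Mir302b had 71 counts (13.8 CPM, 10.8 to 17.5) and 11 (4.72 CPM, 2.35 to 8.44), a mean of 9.28 ± 6.45 CPM. For both of these genes replicate 1 was the higher library and the intervals did not overlap. Mir302c had 8 counts (1.56 CPM, 0.673 to 3.07) and 5 (2.14 CPM, 0.696 to 5.00), a mean of 1.85 ± 0.413 CPM, with overlapping intervals. Mir367 had 0 counts in both libraries, on either strand.

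**Figure D1:**
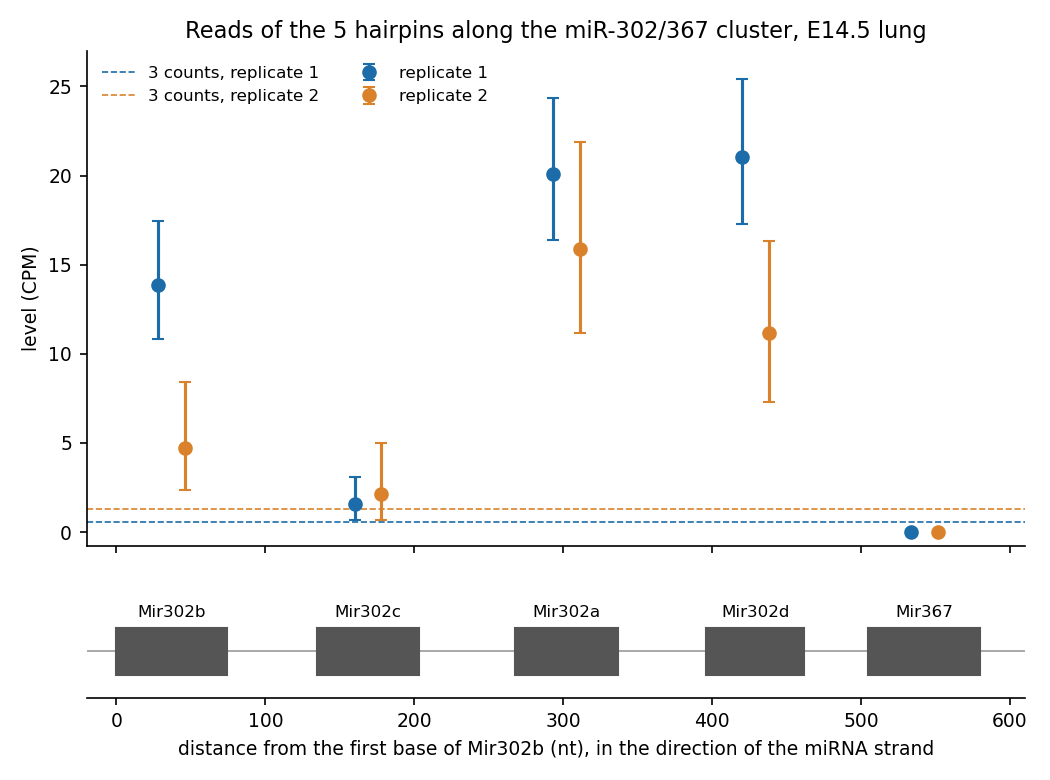
Level (CPM) of the 5 hairpins in replicate 1 (blue) and replicate 2 (orange) along the cluster, as distance in nt from the first base of Mir302b, with hairpins drawn to scale below. Bars are 95% exact Poisson intervals (none is drawn at 0 counts) and dashed lines mark 3 counts in each library; Mir302a and Mir302d reach 11.1 to 21.1 CPM, Mir302c stays near 2 CPM and Mir367 is at 0.

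The order of the members could be read in part. Mir302a held 48.8% of the reads of the pair Mir302a and Mir302d in replicate 1 (95% exact binomial interval 41.9 to 55.8) and 58.7% in replicate 2 (45.6 to 71.0), so their order was not resolved in either library. Both exceeded Mir302b in both libraries, with 59.2% (51.5 to 66.6) and 77.1% (62.7 to 88.0) of the paired reads for Mir302a and 60.3% (52.8 to 67.6) and 70.3% (53.0 to 84.1) for Mir302d. Mir302b exceeded Mir302c in replicate 1, with 89.9% of the pair (81.0 to 95.5), whereas the interval in replicate 2 (41.3 to 89.0, for 68.8%) covered equality. Mir302c had more reads than Mir367 in both libraries, 8 and 5 against 0, but at 5 reads the interval of the split in replicate 2 (47.8 to 100) also covered equality. These hairpins differ by at most 9 nt in length, and with levels divided by hairpin length the order within each library stayed as it was.

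Mir302a and Mir302d together gave most reads of the cluster. Their joint part was 72.8% of its reads (exact interval 67.2 to 77.8) in the first library and 79.7% (69.2 to 88.0) in the other. Mir302b contributed 24.5% (19.6 to 29.9) and 13.9% (7.16 to 23.5), and Mir302c 2.76% (1.20 to 5.36) and 6.33% (2.09 to 14.2). For each member the intervals of the libraries overlapped. The 4 Mir302 genes summed to 290 reads in replicate 1 and 79 in replicate 2. Set against the limit of 3 counts per library for Mir367, the summed Mir302 reads were 96.7 times that limit in replicate 1 and 26.3 times in replicate 2. The counting error of the summed Mir302 reads is not included. These are ratios of reads, and the efficiency with which each mature sequence enters a library is unknown here.

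Reads that map to several places were not assigned to genes, and they were 32.9% and 33.1% of all reads. Within the 1004 other hairpins of the reference, no mature arm listed for a member recurred whole. Read from its 5′ end, miR-302b-3p has 18 bases in common with the Mir302a hairpin, so 19 bases are needed to separate them. The corresponding stretches are 17 bases for miR-302d-3p and 16 for miR-302c-3p, each shared with other Mir302 hairpins. For both arms of Mir367 the stretch is 8 bases, against 21 and 22 bases of full length. Reads of the 3p arms shortened to these lengths would not be assigned, while those of Mir367 remain distinct among hairpins from 9 bases. The lengths of the reads are not in the count tables.

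Genes elsewhere in the genome carry the seeds of miR-302b-3p, miR-302d-3p and miR-367-3p. The cluster's share of the reads ran from most of one family, by point estimate, to none of the other. In replicate 2 the interval of the larger share covered equality. Families were built from listed mature arms, so Mir302a is in neither of them. No other gene had a listed arm with the seed of miR-302c-3p, so Mir302c is in neither as well. The seed of miR-302b-3p and miR-302d-3p is shared by 3 genes of the miR-290 cluster on chromosome 7, which is active in the early embryo and in embryonic stem cells. The seed of miR-367-3p is shared by 6 genes of the miR-25 and miR-92 families, which include members of the miR-17~92 cluster and its paralogues. Representative sequences show the shared seed in capitals and the differing remainder.
miR-294-3p: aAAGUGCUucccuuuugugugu
miR-291a-3p: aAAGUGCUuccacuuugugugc
miR-295-3p: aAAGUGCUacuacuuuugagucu
miR-25-3p: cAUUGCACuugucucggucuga
miR-92a-3p: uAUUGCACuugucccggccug
miR-363-3p: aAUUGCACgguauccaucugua
Mir302b and Mir302d together had 179 of the 220 reads of this seed family, Mir302a left out, in replicate 1, which is 81.4% (95% exact binomial interval 75.6 to 86.3), and 37 of 59 in replicate 2, which is 62.7% (49.1 to 75.0). The intervals did not overlap. The Mir302a hairpin holds the first 18 bases of miR-302b-3p, the seed among them, and a family with the reads of Mir302a added was therefore also counted, a choice made after seeing the data. The 3 Mir302 genes then had 282 of 323 reads in replicate 1, which is 87.3% (exact interval 83.2 to 90.7), and 74 of 96 in replicate 2, which is 77.1% (67.4 to 85.0), and these intervals overlapped. Mir294 had 22 and 11 counts (4.29 and 4.72 CPM), Mir291a 12 and 8 (2.34 and 3.43 CPM) and Mir295 7 and 3 (1.36 and 1.29 CPM). These 3 genes did not pass the test between the libraries that is described below (exact binomial, adjusted p = 1, 0.657 and 1). When a seed of 6 bases (2 to 7) was used, Mir350, Mir290a and Mir291b joined the family. Mir350, with 1301 and 691 reads, brought the mean share of Mir302b and Mir302d, still without Mir302a, from 72.0% to 8.33%. It entered through its 5p arm, while its reads are of the whole gene and do not tell the arms apart.

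Mir367 held 0 of 37677 reads of its seed family in replicate 1, which allows a share of up to 0.00796%, and 0 of 17942 in replicate 2, which allows up to 0.0167%. The reads of the family came from the other genes with a listed arm of that seed. Being per gene, these counts do not tell whether the arm with the seed was read. Mir92-1, from the miR-17~92 cluster, stood at 3966 and 4262 CPM in replicates 1 and 2. Mir92b stood at 1361 and 1286 CPM and Mir25 at 1070 and 1227 CPM. Mir363 stood at 463 and 471 CPM. Mir32 (306 and 261 CPM) and Mir92-2 (181 and 187 CPM) were the lowest as counted. As counted, the family held 7520 ± 245 CPM (SD, n = 2). Mir92-1 and Mir92-2 have the identical mature arm miR-92a-3p, whose reads map to both, so their counts are lower bounds. The family level is therefore a lower bound too, and the rank of Mir92-2 within the family is not settled.

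**Figure D2:**
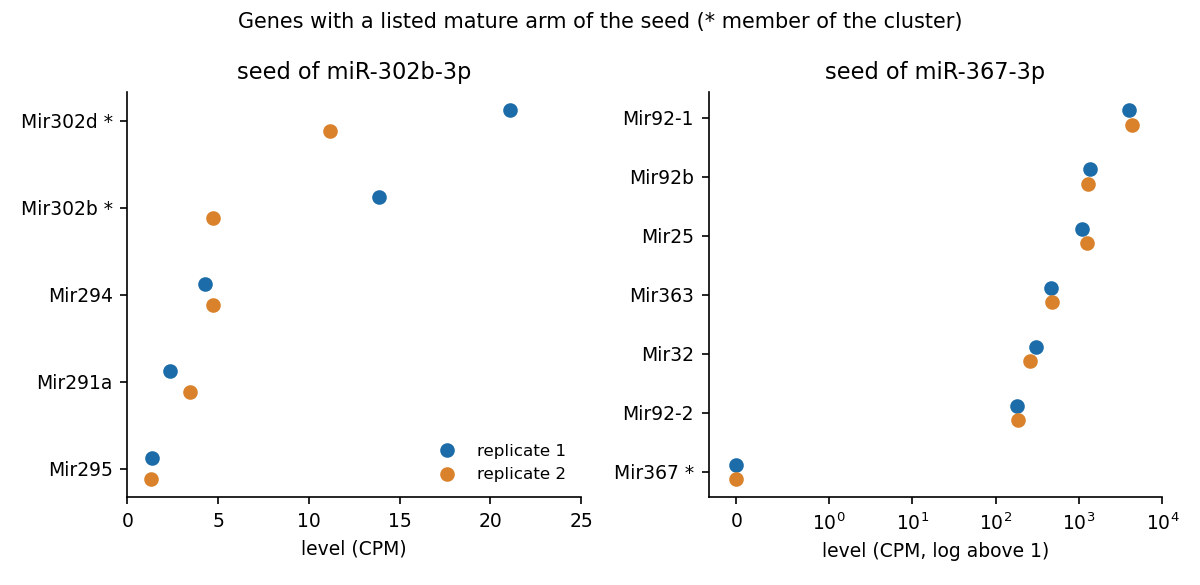
Level (CPM) of each gene with a listed mature arm that has the seed of miR-302b-3p (left, linear axis, without Mir302a) or of miR-367-3p (right, linear to 1 CPM and logarithmic above), replicate 1 in blue and replicate 2 in orange; members of the cluster carry an asterisk. Mir302d and Mir302b are the highest by mean of the genes drawn on the left, at 4.72 to 21.1 CPM, whereas Mir367 is at 0 beside 6 genes between 181 and 4262 CPM.

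A further seed, chosen after its values had been seen, overlaps that of miR-302 with a different start.
miR-17-5p: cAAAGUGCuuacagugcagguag
Mir17 itself, which drives proliferation of lung progenitors, had 150472 and 95179 counts, or 29342 and 40814 CPM.

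Among all miRNA genes, the Mir302 genes ranked in the middle of those with a read. Of the 1973 genes, 688 had a read in either library, and their median level was 2.66 CPM. By mean level Mir302a ranked 260, Mir302d 263, Mir302b 286 and Mir302c 375, so that 3 members lay above that median and Mir302c below it. More than 3 counts in both libraries were found for 4 of 5 members, against 19.6% of all genes listed. The 5 genes together held 0.00565% of counts in replicate 1 and 0.00339% in replicate 2, or 56.5 and 33.9 CPM. By the distance between log2(CPM + 1) and the mean profile of the 5 members over the 2 libraries, the nearest other genes were Mir1947 (distance 0.09), Mir147 (0.23), Mir3064 (0.26), Mir3075 (0.31) and Mir294 (0.44). With 2 libraries this measures likeness of level only. Mir1947, the nearest, had 29 and 10 counts.

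**Figure D3:**
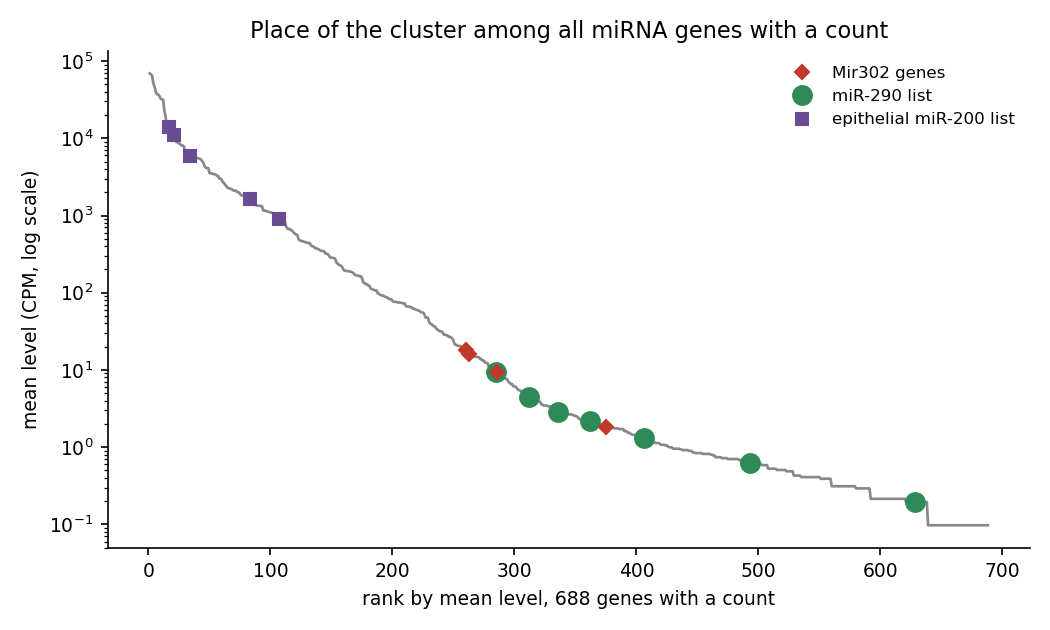
Mean level of both libraries (CPM, log axis) against rank for the 688 miRNA genes with a count, with the 4 Mir302 genes (diamonds), the miR-290 list (circles) and the epithelial miR-200 list (squares). The Mir302 genes lie at ranks 260 to 375, with Mir302a and Mir302d above every miR-290 gene and Mir302b and Mir302c among them, all far to the right of the epithelial miRNAs; Mir367, at 0, has no point.

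Markers of lung tissue were present, and the cluster was small beside them. The counts are of whole tissue and do not show in which cells the Mir302 reads arose. All 5 genes of the epithelial miR-200 list were above 3 counts in both libraries and held 33294 and 33730 CPM, which is 589 and 996 times the level of the cluster. Its leading genes were Mir429 (14949 and 13319 CPM) and Mir200c (10196 and 11566 CPM). Mir126a of endothelium stood at 76033 and 58438 CPM, the smooth muscle list (Mir143 and Mir145a, with Mir145b at 0) at 79791 and 62023, and the mesenchymal list, led by Mir214 and Mir199b, at 9078 and 10251. The neural list, with Mir9-3 at 1 count in each library and 4 of its 5 genes in the tables at 0, held 0.195 and 0.429 CPM. Mir124a and Mir9 each have several gene copies, and reads that fit more than 1 copy were not assigned, so these counts do not give the level of neural miRNAs.

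The other miRNA cluster of pluripotent cells, miR-290, had a like low level. Counts were listed for 7 of its genes, of which 3 exceeded 3 counts in both libraries, and the 7 together held 21.1 and 21.4 CPM, against 56.5 and 33.9 CPM for the 5 genes studied here. Besides the 3 genes of the shared seed these are Mir293, its most abundant gene, with 47 and 23 counts (9.16 and 9.86 CPM), Mir292 with 16 and 3, Mir290a with 2 and 0, and Mir291b with 2 and 2. None (0) of its 5 tested genes passed the exact binomial test between the libraries at an adjusted p of 0.05, and their median log2 ratio of replicate 2 to replicate 1 was 0.01. Whether the difference between the clusters in this ratio exceeds the spread between embryos was not tested.

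Mir302b and Mir302d were lower in replicate 2 than in replicate 1 by more than counting error, while Mir302a and Mir302c were not. The log2 ratio used here divides replicate 2 by replicate 1, after scaling of CPM with edgeR's TMM method and addition of 1 CPM. Genes with 10 or more counts in the sum of the libraries entered an exact binomial test (two-sided), with Benjamini-Hochberg adjustment across all of them. It compares the reads of 2 libraries, which differ in no named condition. For Mir302b the ratio was -1.46 on the log2 scale (exact binomial, adjusted p = 0.00044). By library totals, without TMM scaling, the share seen in replicate 1 would have given 32.3 reads of it in replicate 2, and 11 were found. The numbers set against the reads of the other members below were obtained likewise. For Mir302d it was -0.94 (exact binomial, adjusted p = 0.00267), with 26 reads against 49.1. Mir302a lay lower without passing the test, at -0.41 (exact binomial, adjusted p = 0.237), with 37 reads against 46.8. Mir302c lay at 0.24 (exact binomial, adjusted p = 0.884), with 5 reads against 3.64, and Mir367 was not tested.

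Calls of this kind were common over all genes. Of 404 genes tested, 41.8% passed, 24.0% lower and 17.8% higher in replicate 2. The 2 of 4 members are near this share over genes of all levels and are no result about the cluster. The median log2 ratio was -0.68 over the 4 members tested and -0.03 over all genes tested. The shares were smaller in a band of 1 to 30 CPM, which holds the 4 members tested and was chosen after the values had been seen. There 8.59% of 163 genes passed and 4.29% were lower in replicate 2. Whether the members exceed the share of this band was not tested. The 7 lower genes of that band were Mir2137, Mir7647, Mir3097, Mir302b, Mir499, Mir1247 and Mir302d. With library totals in place of TMM, 36.7% of all calls were lower in replicate 2, against 57.4% with TMM, and Mir302b and Mir302d passed with either scaling.

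With the common dispersion that edgeR estimated from the same libraries (0.0337, a coefficient of variation of 18.3%) added to counting error, 0 of the 4 members passed. The adjusted p was 0.634 for Mir302b and 1 for Mir302d in that exact beta-binomial test, and at an unadjusted p under 0.05 it held 1 member, Mir302b (p = 0.00734), against 15 of 404 genes (3.71%). Over all genes 0.248% passed, which is 1 gene, Mir208a. The differences of Mir302b and Mir302d are therefore larger than the counting error of these libraries and, by this test, were not told from the general spread between them.

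**Figure D4:**
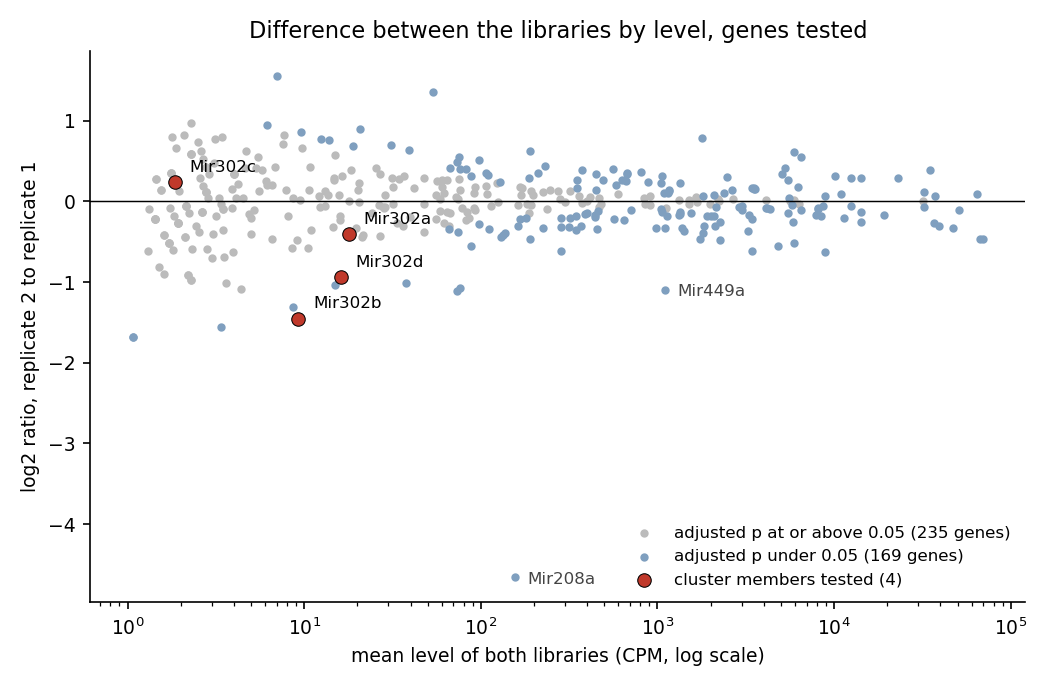
Log2 ratio of replicate 2 to replicate 1 against mean level (CPM, log axis) for the 404 genes tested; grey points did not pass and blue points passed the exact binomial test at an adjusted p of 0.05. The 4 tested members (red) lie between -1.46 and 0.24, with Mir302b the lowest of them, and Mir208a lies lowest at -4.66.

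Markers of other cell types also differed between the libraries, and their part in the lower Mir302b and Mir302d reads was not tested. Genes called lower or higher here passed the exact binomial test, as did 24.0% (lower) and 17.8% (higher) of all genes tested. With the common dispersion added, only Mir208a passed, so the other calls were not told from the general spread between the libraries. The list of heart and striated muscle was 6.44 times higher in replicate 1, at 370 CPM against 57.5 in replicate 2, with 3 genes lower and 1 higher in replicate 2 of 5 tested. Mir208a, from an intron of a cardiac myosin gene, had 1533 of the list's 1899 counts in replicate 1 and 27 of 134 in replicate 2. The ratio of the list thus rests largely on Mir208a. Mir208b had 256 and 60 counts, and Mir499 had 64 and 11. Mir206, of skeletal muscle, was higher in replicate 2 with 32 and 30 counts (log2 ratio 0.86), and Mir133a-1 and Mir133a-2, copies with the same limit, were at 0. The multiciliated list held 2298 and 1750 CPM, with Mir449a lower (log2 ratio -1.10) and Mir34c higher (0.24) in replicate 2. The erythroid list held 497 and 391.5 CPM, with Mir451a (-0.30) and Mir144 (-1.08) both lower. Mir126a of endothelium (-0.47) and Mir143 of smooth muscle (-0.46) were lower in replicate 2 as well. Mir145a, the other tested gene of the smooth muscle list, did not pass (-0.03, exact binomial, adjusted p = 0.525). The mesenchymal list was higher there in 4 of 4 genes tested, with a median log2 ratio of 0.30, although 3 of them share a whole mature arm with another hairpin and are undercounted. The liver and gut list was also higher in replicate 2, at 163 and 196 CPM, with Mir192 lower (-0.38) and Mir194-2 (0.49) and Mir122 (0.70) higher. Mir194-2 likewise shares a whole mature arm with another hairpin and is undercounted. The sum of the epithelial list was nearly the same in both libraries. Of its 5 tested genes 1 was lower in replicate 2, Mir429 (-0.26), and 1 was higher, Mir200c (0.09). The cluster was 1.67 times higher in replicate 1 by CPM.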

How the data were processed

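The members, the marker lists and the tests were chosen with earlier results of these data known. For each library the authors deposited raw counts for every miRNA gene as whole numbers in 3 columns. On the values these are counts without regard to strand, on the gene strand and on the opposite strand, and in 0 genes did the first column differ from the sum of the others. Per the deposited readme the reads were aligned to mm10 and counted on GENCODE annotation M4. The aligner, the counting program and the trimming were not given in the sources used here. Unmapped, multimapping, no-feature and ambiguous reads belong to no gene and were left out of library sizes (12.7%, 32.9%, 4.10% and 0% of 10200412 reads in replicate 1, and 11.7%, 33.1%, 3.93% and 0% of 4544184 in replicate 2). The gene-strand column was used, with 1 count worth 0.195 and 0.429 CPM. Of 1973 identifiers 1894 matched GENCODE M21, whose mm10 coordinates are given, and 927 genes had a sequence in RefSeq. Seed families were found by matching bases 2 to 8. TMM sizes and the dispersion came from edgeR 4.0.16, size factors from DESeq2 1.42.0 (R 4.3.3), and exact tests and intervals from scipy 1.17.1 in Python 3.11.15. The exact binomial test was checked on simulated Poisson counts, which have no spread between libraries beyond counting error. The beta-binomial test was not checked in this way. edgeR's quasi-likelihood test could not be fitted, since 2 libraries of 1 group leave no contrast. The p-values measure only how reads differ between these libraries.

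Named were the members, up to 4 other genes of each seed family with the highest mean CPM, every miR-290 gene with a count, the 5 genes nearest to the members and up to 2 leading genes of each marker list. Mir17, Mir350, Mir32, Mir92-2, Mir499, Mir206, Mir122, Mir145b, Mir9-3, the Mir124a genes, the Mir133a genes and the lower genes of the 1 to 30 CPM band were added after their values had been seen. Listed marker genes outside the tables were not analysed here. Columns of samples outside the series numbered 0.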

Additional observations from a re-analysis of the deposited data

How the results depend on the processing

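The detection of 4 Mir302 genes and the count of 0 for Mir367 held with counts taken without regard to strand, and with a limit of 10 counts 3 members were detected. With multimapping and other mapped unassigned reads in the denominator, the share of the cluster was 0.00261% in place of 0.00452%. All detected members were lower by mean, with Mir302a at 10.4 CPM, Mir302d at 9.30 CPM, Mir302b at 5.36 CPM and Mir302c at 1.07 CPM. Without its most abundant member the cluster's share was 0.00272%. Leaving out a replicate gave shares of 0.00339% to 0.00565%. The log2 ratio of the summed Mir302 genes to the limit for Mir367 was 5.66 ± 1.33 (SD, n = 2), 4.72 to 6.59 with either replicate left out, and 3.74 with the median Mir302 gene in place of the sum. With a seed of 6 bases the share of Mir302b and Mir302d in their family, which leaves out Mir302a, was 8.33% in place of 72.0%, because Mir350 entered. With Mir302a added, an alternative chosen after seeing the data, it was 82.2%. With the common dispersion added, 1 gene in place of 169 and 0 members in place of 2 passed, and Mir302b (log2 ratio -1.46) and Mir302d (-0.94) lost their calls. Under the other scalings and filters, and with counts without regard to strand, both kept their calls (adjusted p 0.000187 to 0.00101 for Mir302b and 0.0014 to 0.0077 for Mir302d). The pseudocount does not enter that test, and no member changed direction under any of these settings or pseudocounts. DESeq2 size factors shifted all log2 ratios by -0.14 and TMM by -0.09 relative to library totals. With 8 and 5 counts, only a large difference in Mir302c could have passed the test at this depth. No paired analysis was possible because the samples form 1 group.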
